A study of Mus musculus with 4 samples.

Results

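Metaplasia-associated genes were read in mucous neck cells and zymogenic (chief) cells of the mouse gastric corpus, with and without the transcription factor MIST1. The members were 9 genes, Wfdc2, Olfm4, Clu, Dmbt1, Sox9, Cd44, Muc4, Cftr and Gpx2, fixed by name as a list, with earlier results of these arrays known. Each had 1 probe set that the platform annotation assigns to a single gene, so 9 of 9 members were measured among 19938 genes. Cells were cut from stomach sections by laser capture and RNA was hybridized to Affymetrix Mouse Gene 1.0 ST arrays. The 4 groups were neck cells of wild-type mice, neck cells of MIST1 knockout mice, zymogenic cells of wild-type mice and zymogenic cells of MIST1 knockout mice. All mice were adults on a C57BL/6 background, and no treatment is named. Each group was 1 array, made from RNA pooled over several dissections and several mice. The design text names 4 wild-type and 5 knockout mice, without saying which animal went into which pool. No difference between arrays therefore has a replicate check, no p-value is given, and every value is a single intensity. In pooled tissue, fewer cells of a type and less RNA per cell cannot be told apart.

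Mucous metaplasia of the gastric corpus, often called spasmolytic polypeptide-expressing metaplasia, is a change in which acid-secreting parietal cells are lost and the gland base fills with mucous cells that carry both neck cell and chief cell products. Neck cells are held to be the normal source of chief cells, and MIST1 drives the secretory architecture that chief cells acquire. Wfdc2, Clu, Sox9, Cd44 variant forms and Dmbt1 are known from such metaplastic glands, and Olfm4, Muc4, Cftr and Gpx2 are genes of the intestinal or injured epithelium that are also seen in metaplastic stomach.

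Most defining genes of the dissected cells followed the labels, with exceptions in Aqp5 and among the pepsinogens, and genes of other cells were present in each array. Bhlha15, the gene of MIST1, read 59.7 in wild-type and 20.2 in MIST1-null neck cells, and 149.8 in wild-type and 22.0 in MIST1-null zymogenic cells. Whether its probes fall inside the sequence removed in the knockout is not stated, so these values check the labels only in part. Muc6, the gland mucin of neck cells, read 2511 and 2980 in the wild-type and MIST1-null neck arrays against 26.7 and 20.7 in the zymogenic arrays. Aqp5, also listed as a neck marker, was lower in the neck arrays. It read 65.7 and 62.5 in wild-type and MIST1-null neck cells against 95.5 and 92 in zymogenic cells. Pgc, a pepsinogen gene, lay between 8672 and 10638 in all 4 arrays, so the neck arrays were also bright for a zymogenic cell product. Pga5, another pepsinogen gene, went against the labels, with 1350 and 1884 in the wild-type and MIST1-null neck arrays against 31.0 and 20.4 in the zymogenic arrays. The proton pump subunit Atp4b, which belongs to parietal cells, lay between 1202 and 2484 in all 4 arrays. Array medians over all probe sets lay between 37.9 and 40.9.

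A level of 43.7, the median over all probe sets with 1 gene, served as the floor for calling a difference. It stands in for a background estimate, which these values do not give. A gene was called higher or lower where 2 arrays differed at least 2-fold and the higher of them reached this level. Of the 9 members, 3 reached it in all 4 arrays (Clu, Sox9 and Muc4), 2 in 2 arrays (Wfdc2 and Dmbt1), 2 in 1 array (Olfm4 and Gpx2) and 2 in no array (Cd44 and Cftr). Differences with a value under the level rest on low intensities, and their size is given with that limit.

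**Figure D1:**
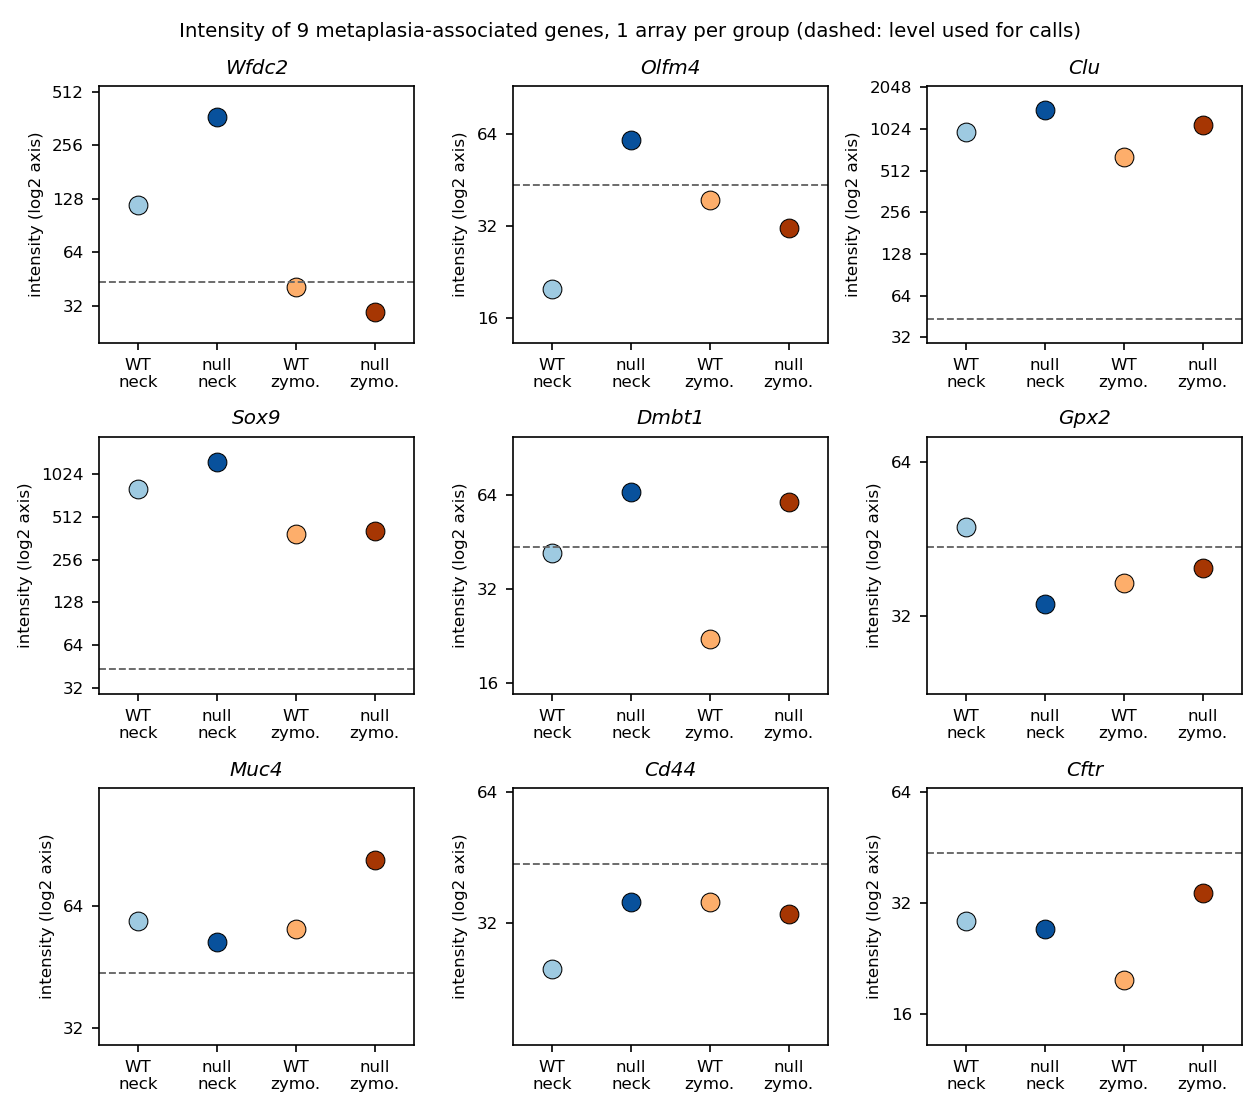
Intensity of each of the 9 members (vertical axis, log2 scale, each panel with its own range) in the 4 arrays (horizontal axis), with the level of 43.7 as a dashed line and 1 point per array. Wfdc2 stands highest in the MIST1-null neck array at 369, Clu and Sox9 lie far above the level throughout, and Cd44 and Cftr lie under it throughout.

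Wfdc2 encodes a small secreted protein with 4-disulfide core domains, also known as HE4, and is a marker of metaplastic mucous cells. It read 119 in wild-type neck, 369 in MIST1-null neck, 40.6 in wild-type zymogenic and 29.6 in MIST1-null zymogenic cells. Both neck arrays were thus above the level and both zymogenic arrays under it, with the MIST1-null neck array highest. In neck cells the MIST1-null array was 3.11-fold higher, a log2 difference of 1.64, and 40 of the 19938 genes had a rise at least as large in that comparison. With a pseudocount of 32 added to each intensity, which damps differences between low values, the log2 difference was 1.41. In zymogenic cells the difference was -0.46 between values both under the level. Zymogenic against neck cells gave -1.55 in wild-type and -3.64 in MIST1-null mice, or -1.05 and -2.70 with the pseudocount. The last difference, 12.5-fold on the deposited values, was the largest of any member in any of the 4 comparisons, and 23 of the 19938 genes were at least as far down in it.

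Olfm4 encodes a secreted olfactomedin glycoprotein best known from stem cells of the small intestine and from intestinal metaplasia. It read 19.9 in wild-type neck, 61.5 in MIST1-null neck, 39.0 in wild-type zymogenic and 31.6 in MIST1-null zymogenic cells. The MIST1-null neck array was the only one above the level. Its log2 difference in neck cells was 1.63, and 43 genes had as large a rise. With the pseudocount it was 0.85, under 2-fold, so the size of the Olfm4 difference is not firm. In zymogenic cells the genotype difference was -0.30. The cell type difference had opposite signs in the 2 genotypes, at 0.97 in wild-type and -0.96 in MIST1-null mice.

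The sequences before the start sites of Wfdc2 and Olfm4 are shown because these members were the ones called higher in MIST1-null neck cells, and because MIST1 is a basic helix-loop-helix factor, a class that binds E-boxes (CANNTG). The lines give the 250 bases before the RefSeq start site, both on the plus strand, at chr2:164562465-164562714 for Wfdc2 and chr14:80000052-80000301 for Olfm4 in GRCm38.p6, with E-boxes in capitals.
Wfdc2: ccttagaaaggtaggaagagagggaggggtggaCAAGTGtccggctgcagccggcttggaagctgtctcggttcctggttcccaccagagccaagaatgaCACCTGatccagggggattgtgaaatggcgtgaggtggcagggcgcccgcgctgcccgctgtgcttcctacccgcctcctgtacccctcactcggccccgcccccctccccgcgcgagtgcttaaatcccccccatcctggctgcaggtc
Olfm4: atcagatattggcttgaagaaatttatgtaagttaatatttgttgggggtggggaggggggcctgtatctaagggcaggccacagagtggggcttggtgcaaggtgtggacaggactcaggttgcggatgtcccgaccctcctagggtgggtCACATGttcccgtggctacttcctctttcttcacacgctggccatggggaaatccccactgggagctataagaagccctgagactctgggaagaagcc
Wfdc2 has 2 E-boxes in these bases, the first at 217 and the second at 150 bases before the start, and a further match at position 2 after it. RefSeq gives Wfdc2 a second start site 1 base downstream, with the same matches. Olfm4 has 1, at 98 bases before the start. Of 9 members, 6 had an entry in the promoter table, which spans 250 bases before to 50 after the start, and Clu, Sox9 and Dmbt1 had none. In these 300 bases Gpx2 had 4 matches, Muc4 1, Cftr 1 and Cd44 0. The pattern reads the same on both strands, and 72.3% of all 32851 promoters in the table hold at least 1 match. The form CATATG, reported for MIST1, occurs in 3.91% of promoters and CAGCTG in 16.3%. Neither occurs in the windows of the 6 members. A match is a string of letters and not a measured binding site.

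Clu encodes clusterin, a secreted chaperone that appears in injured and regenerating epithelium. It read 966 in wild-type neck, 1391 in MIST1-null neck, 641 in wild-type zymogenic and 1088 in MIST1-null zymogenic cells. The MIST1-null array was the higher of the pair in both cell types, and both neck arrays were above their zymogenic counterparts. The genotype differences were 0.53 in neck and 0.76 in zymogenic cells, and the cell type differences -0.59 in wild-type and -0.35 in MIST1-null mice. None reached 2-fold, and 1905 genes in neck and 1659 in zymogenic cells differed at least as far upward between genotypes. With the pseudocount the genotype differences were 0.51 and 0.74, close to the values without it.

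Dmbt1 encodes a large secreted scavenger receptor glycoprotein of mucosal surfaces that binds bacteria and mucins. It read 41.8 in wild-type neck, 65.5 in MIST1-null neck, 22.2 in wild-type zymogenic and 60.9 in MIST1-null zymogenic cells. Both MIST1-null arrays were above the level and both wild-type arrays under it. In zymogenic cells the log2 difference was 1.46, a 2.75-fold higher intensity that 217 genes matched or exceeded, and in neck cells it was 0.65. The zymogenic difference was 0.78 with the pseudocount and under 2-fold, so its size is not firm either. Cell type differences were -0.92 in wild-type and -0.11 in MIST1-null mice.

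Sox9, an HMG-box transcription factor of progenitor cells in the gut and pancreas, is the only transcription factor among the members. It read 803 in wild-type neck, 1237 in MIST1-null neck, 388 in wild-type zymogenic and 407 in MIST1-null zymogenic cells. Both neck arrays were above both zymogenic arrays. Zymogenic against neck cells differed by -1.05 in wild-type and -1.61 in MIST1-null mice, and 944 and 215 genes were at least as far down. The wild-type value stands next to the 2-fold line and was -0.99 with the pseudocount. Between genotypes, Sox9 differed by 0.62 in neck and by 0.07 in zymogenic cells.

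The surface proteins of the set had low intensities. Cd44, the hyaluronan receptor whose variant forms mark metaplastic cells, read 25.1 in wild-type neck, 35.8 in MIST1-null neck, 35.7 in wild-type zymogenic and 33.5 in MIST1-null zymogenic cells. The wild-type neck array was lowest and the other 3 lay close together, all under the level. Its probe set gives 1 value for the gene, so splice forms were not told apart. Cftr, the chloride channel that hydrates mucus, read 28.5, 27.1, 19.7 and 34.1 in the same order of arrays, all under the level. Its genotype difference was 0.79 in zymogenic and -0.07 in neck cells, the latter turning to a value of up to 0.01 in other scalings.

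Muc4, a membrane mucin that pairs with the receptor ErbB2, read 58.9 in wild-type neck, 52.3 in MIST1-null neck, 56.2 in wild-type zymogenic and 83.2 in MIST1-null zymogenic cells. The MIST1-null zymogenic array was above the other 3, which lay close together. The genotype difference was 0.57 in zymogenic and -0.17 in neck cells. Gpx2, the glutathione peroxidase of the gastrointestinal epithelium, read 47.7 in wild-type neck, 33.8 in MIST1-null neck, 37.1 in wild-type zymogenic and 39.8 in MIST1-null zymogenic cells. It had the narrowest span of the 9 genes, 1.41-fold from lowest to highest, and was the only member with its highest value in a wild-type array.

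**Figure D2:**
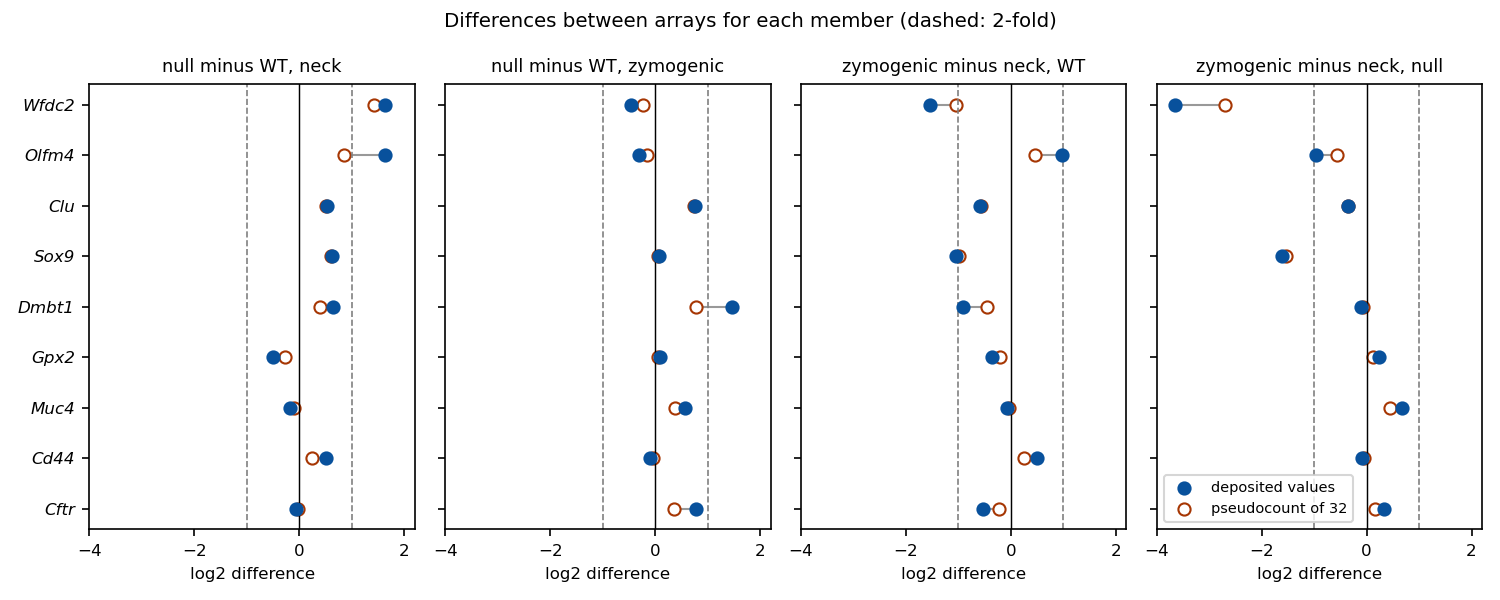
Log2 differences (horizontal axis) of the 9 members in the 4 comparisons, from deposited values (filled) and with a pseudocount of 32 (open), with dashed lines at 2-fold. The points of Clu and Sox9 nearly coincide, while Olfm4 in neck cells moves from 1.63 to 0.85 and Dmbt1 in zymogenic cells from 1.46 to 0.78.

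Set against all genes, the genotype comparison in neck cells had 2 of 9 members called higher (Wfdc2 and Olfm4) and 0 lower, where 1.04% of all 19938 genes were called higher and 1.32% lower. The median log2 difference was 0.53 over the 9 members and -0.03 over all genes, and 6 of 9 members were above 0 against 47.3% of all genes. In zymogenic cells 1 member (Dmbt1) was called higher and 0 lower, against 3.05% and 3.10% of all genes. The member median there was 0.10 and that of all genes -0.01, with 6 of 9 members above 0 against 48.9%. These shares describe the list and are not a test of it.

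Zymogenic cells had 2 members called lower than neck cells in wild-type mice and 2 in MIST1-null mice, Wfdc2 and Sox9 each time, and 0 called higher. Of all genes, 4.01% were called lower in wild-type and 2.72% in MIST1-null mice, and 3.71% and 2.78% were called higher. Member medians were -0.53 and -0.11, against 0.05 over all genes in both. In wild-type mice 7 of 9 members were below 0 and Olfm4 and Cd44 above it. In MIST1-null mice 6 were below 0, and Gpx2, Muc4 and Cftr were above it. Over all genes, 54.0% were above 0 in wild-type and 54.4% in MIST1-null mice. Each array enters 2 of the 4 comparisons, so a high MIST1-null neck value of Wfdc2 raises its genotype difference and lowers its cell type difference at once.

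Read by array, the MIST1-null neck array was the highest of the 4 for 6 of 9 members, Wfdc2, Olfm4, Clu, Sox9, Dmbt1 and Cd44, whereas it was the highest for 19.7% of all genes. The MIST1-null zymogenic array was highest for Muc4 and Cftr, and for 26.1% of all genes. The wild-type zymogenic array was highest for 0 members and for 32.8% of all genes. It was the lowest of the 4 for Clu, Sox9, Dmbt1 and Cftr, and for 25.9% of all genes.

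Members differed in whether the genotype difference was alike in both cell types. Clu, Dmbt1 and Sox9 were above 0 in both, which was the case for 3 of 9 members and for 4985 of the 19938 genes. Sox9 was near 0 in zymogenic cells, at 0.07. Wfdc2, Olfm4 and Cd44 were above 0 in neck and below 0 in zymogenic cells, and Gpx2, Muc4 and Cftr the other way round. The genotype difference in zymogenic cells minus that in neck cells was -2.09 for Wfdc2 and -1.93 for Olfm4. These were 2 of 9 members past 2-fold in that direction, against 4.50% of all genes under the same rule with the highest of the 4 arrays at the level. In the other direction there were 0 members, against 5.24% of all genes. With the pseudocount the values were -1.65 and -1.01. For the other 7 members it lay between -0.60 (Cd44) and 0.86 (Cftr).

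**Figure D3:**
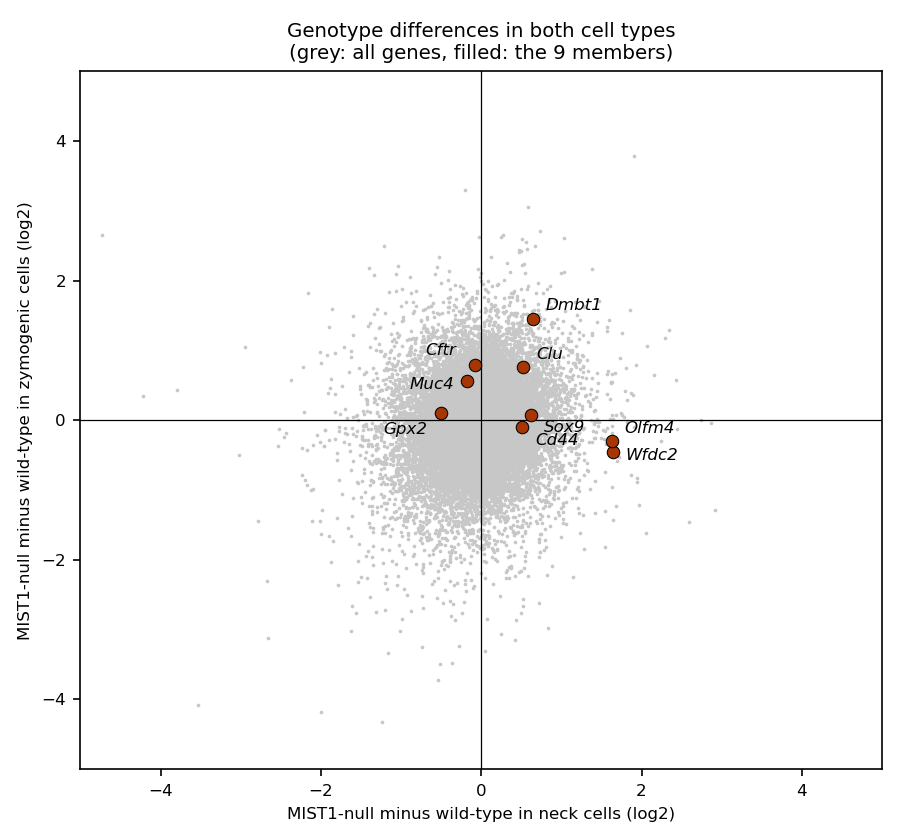
Log2 difference of MIST1-null minus wild-type in neck cells (horizontal axis) against the same in zymogenic cells (vertical axis), for 19938 genes in grey and the 9 members as filled points, 1 array per group. Wfdc2 and Olfm4 lie far right at 1.64 and 1.63 and just under 0 on the vertical axis, and Dmbt1 is the highest member on the vertical axis at 1.46.

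Cell type markers moved beside some of these values, and their part in the results was not tested. In MIST1-null against wild-type neck cells, 5 of 6 mucous neck markers were above 0, against 47.3% of all genes. Their summed intensity was 11845 against 9616. Gkn3 differed by 0.70, A4gnt by 0.50 and Muc6 by 0.25, beside 1.64 for Wfdc2 and 0.62 for Sox9. The summed intensities of endocrine and tuft markers (3781 against 5835), fibroblast and smooth muscle markers (339 against 473) and leukocyte markers (226 against 371.5) were lower in that array. Most of the leukocyte difference came from Cd53, at 6.30 against 117.7, and without it the sums were 219.5 against 254. In MIST1-null against wild-type zymogenic cells, 7 of 7 parietal markers were above 0, against 48.9% of all genes. Their sum was 8456 against 4652, beside Dmbt1, which was called higher (1.46), and Clu (0.76) and Cftr (0.79), which were not called. Mucous neck markers went the other way, with 0 of 6 above 0 and a sum of 689 against 1839. Wfdc2 was at -0.46 in that comparison, with both values under the level. Of 8 endocrine and tuft markers 6 were above 0, with a sum of 12850 against 8793. The parietal sum was 8364 and 8935 in the wild-type and MIST1-null neck arrays, so the wild-type zymogenic array stood lowest of the 4. That array was also lowest for Clu, Sox9, Dmbt1 and Cftr, and for 25.9% of all genes. In zymogenic against neck cells, 5 of 6 neck markers were called lower in each genotype, beside Wfdc2 and Sox9. The 8 fibroblast and smooth muscle markers summed to 1233 and 1367 in the wild-type and MIST1-null zymogenic arrays. The macrophage and granulocyte gene Lyz2 read 63.9 and 74.6 there, against 11.4 and 9.06 in the neck arrays. The leukocyte gene Cd53 was called lower in wild-type zymogenic than neck cells, at 56.7 against 117.7, and Itgam was below 0 in both genotypes. Of the 8 leukocyte markers, 6 were above 0 in each genotype, against 54.0% of all genes in wild-type and 54.4% in MIST1-null mice. The pan-leukocyte gene Ptprc read 30.6 to 54.9 over the 4 arrays, beside Cd44, which leukocytes also carry.

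**Figure D4:**
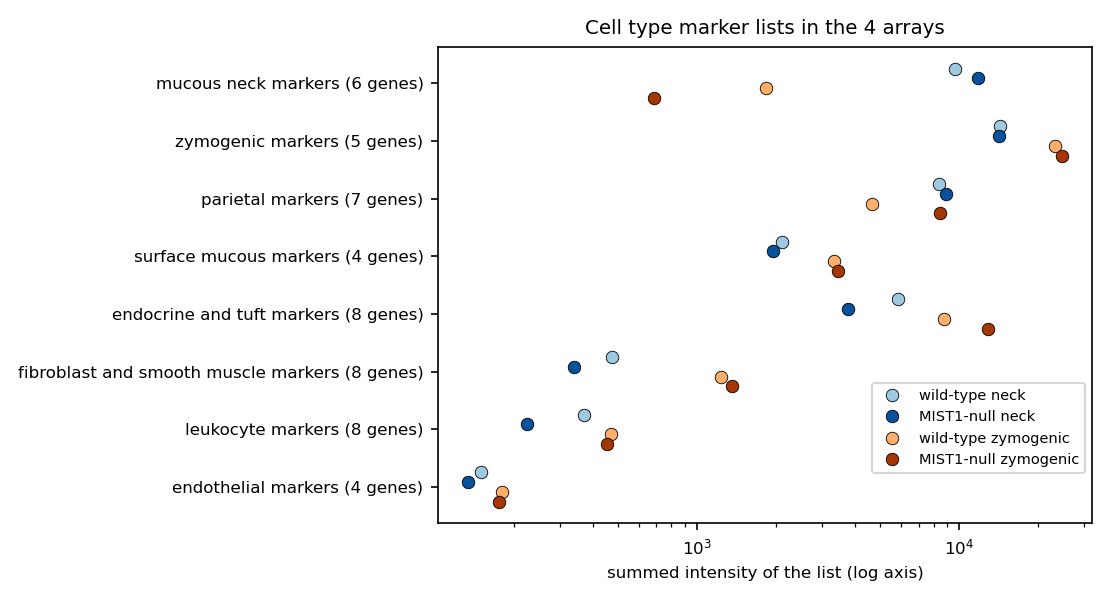
Summed intensity (horizontal axis, log scale) of each cell type marker list in the 4 arrays, 1 point per array. Mucous neck markers separate the neck arrays (9616 and 11845) from the zymogenic arrays (1839 and 689), and parietal markers are lowest in the wild-type zymogenic array (4652).

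Of 12 other genes reported in mucous metaplasia, 11 were matched by symbol to a probe set with 1 gene. In MIST1-null against wild-type neck cells 0 were called in either direction, against 1.04% of all genes higher and 1.32% lower. The list median was -0.07. Krt19, a simple epithelial keratin, was at 0.82 and Nupr1, a stress-response gene of the metaplastic program, at -0.98. In zymogenic cells Krt19 was called higher, at 1.89, with 17.1 in wild-type cells, under the level, and 63.2 in MIST1-null cells. Tff2, the spasmolytic polypeptide itself, was called lower, at -2.25 (1320 and 277). Of all genes, 3.05% were called higher and 3.10% lower in that comparison. Muc6 and Gkn3, mucous products that metaplastic cells share with neck cells, were at -0.37 and -0.56 there, with values at or under 59.8. Slc7a11, the cystine carrier that Cd44 variant forms stabilise, read 11.4 to 19.4 in all 4 arrays. Zymogenic against neck cells had 5 called lower in wild-type and 4 in MIST1-null mice, against 4.01% and 2.72% of all genes. They were led by Muc6 (-6.56 and -7.17), Agr2 (-3.45 in wild-type) and Gkn3 (-3.31 in wild-type). Tff2, Muc6, Gkn3 and Agr2 were called lower in both genotypes, and Krt19 in wild-type mice. Except for Krt19, these genes are also in the mucous neck marker list. The counts therefore repeat the neck marker result and say nothing separate about metaplasia. Nupr1 was called higher in both genotypes (1.72 and 2.79).

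Of 12 intestinal genes, 0 were called between genotypes in neck cells, where 1.04% of all genes were called higher and 1.32% lower. In zymogenic cells 1 was called lower, Guca2a, a guanylin precursor gene, at -1.02, against 3.10% of all genes. With shares this low, few or no calls in a short list say little about its genes. Cdx2, the intestinal master regulator, read 21.8 to 30.8, and Muc2, the goblet cell mucin, 21.5 to 28.9, all under the level. Tff3, the goblet cell trefoil peptide, was between 50.3 and 56.1 in all 4 arrays. Krt20 was called higher (1.33) and the transcription factor Hnf4a lower (-1.29) in zymogenic against neck cells of MIST1-null mice. Of all genes, 2.78% were called higher and 2.72% lower in that comparison. In wild-type mice 0 of 12 were called, against 3.71% higher and 4.01% lower of all genes. Krt20 read 17.8 in MIST1-null neck cells, under the level, and 44.8 in MIST1-null zymogenic cells, just over it.

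The gene families of the secreted members were read for comparison. Of all genes, 1.04% were called higher and 1.32% lower between genotypes in neck cells, and 3.05% and 3.10% in zymogenic cells. Counts of 0 in lists this short therefore say little. Among 9 WAP domain and olfactomedin genes, 0 were called between genotypes in either cell type. In neck cells 6 of 9 were above 0, against 47.3% of all genes, and Wfdc1, Wfdc5 and Wfdc15b were at -0.10, -0.11 and -0.12. Wfdc3 was at 0.88 in neck and -0.75 in zymogenic cells, beside 1.64 and -0.46 for Wfdc2. Wfdc3 was the only one called between cell types, at 1.38 in wild-type mice, with a neck value of 33.3, under the level. Olfm1, Olfm2 and Olfm3 were at 0.11, 0.45 and 0.42 in neck cells, and at -0.27, 0.56 and -0.78 in zymogenic cells. Olfm1 and Olfm3 were under the level in every array, and Olfm2 read 41.7 in wild-type neck cells, also under it. Among 8 mucosal defence genes listed with Dmbt1, 0 were called in neck cells and 1 was called higher in MIST1-null zymogenic cells, lactotransferrin (Ltf) at 1.17. Pigr, the carrier of secreted antibodies, was at 0.81 there. In wild-type zymogenic cells Ltf read 32.9 and Pigr 28.1, both under the level. Between genotypes in zymogenic cells 6 of 8 were above 0, against 48.9% of all genes, with a list median of 0.49. In neck cells, where Dmbt1 was at 0.65, 1 of 8 was above 0, against 47.3% of all genes, and the median was -0.40.

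Relatives of the surface and enzyme members were also measured. The shares of all genes called between genotypes, given above, apply to these short lists too. Of 10 chloride and bicarbonate transport genes, 2 were called higher in MIST1-null zymogenic cells, against 3.05% of all genes, while 0 were called in neck cells. The 2 were the chloride transporter Slc26a9 at 1.24 and the potassium channel Kcnq1 at 1.05. Kcnq1 read 40.1 in the wild-type zymogenic array, under the level. In wild-type mice 4 were called lower in zymogenic than neck cells, against 4.01% of all genes. They were led by Slc26a9 (-1.63), the cotransporter Slc12a2 (-1.40) and Kcnq1 (-1.10). Kcnq1 and Slc26a9 are also parietal or surface cell genes, and parietal markers had the same sign in both comparisons. Of 10 mucins and Muc4 partners, 0 were called between genotypes. In wild-type mice 2 were called lower in zymogenic than neck cells, Muc6 (-6.56) and Erbb2 (-1.32), against 4.01% of all genes. In MIST1-null mice 1 was, Muc6 (-7.17), against 2.72% of all genes. Erbb2 read 23.7 in the wild-type zymogenic array, under the level. Of 10 measured CD44 ligands, linkers and splicing factors, 0 were called between genotypes. The linker gene Rdx was at -0.95 and Msn at -0.88 in neck cells, and Msn was called higher in MIST1-null zymogenic than neck cells, at 1.59. Msn read 40.05 in the MIST1-null neck array, under the level. Of 7 other glutathione peroxidases, Gpx4 was called lower in MIST1-null neck cells (-1.08) and Gpx3 higher in MIST1-null zymogenic cells (1.51), beside -0.50 and 0.10 for Gpx2.

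Genes with the most similar profile were sought for the 5 members that spanned at least 2-fold and reached the level, by the distance between log2 profiles centred over the 4 arrays, among 4406 well-expressed genes. With 4 points per profile the likeness is a description only. Closest to Wfdc2 were Cyp2c66 (distance 0.99), Erlin1 (1.00) and the neck marker A4gnt (1.07), all far apart from it. Closest to Olfm4 were Atg2b (0.33), Lipo3 (0.42) and Hivep1 (0.44), and to Sox9 Erg28 (0.17), Col6a6 (0.21) and Capns1 (0.23). Closest to Clu were H3f3a (0.09), Elovl7 (0.10) and Uty (0.10), and to Dmbt1 Pfkfb2 (0.17), Mapkapk2 (0.19) and Gmfb (0.20). None of these genes is a member or a second gene of a member's family. The search took only genes whose mean over the arrays reached the 75th percentile. Olfm4, Dmbt1, Gpx2, Muc4, Cd44 and Cftr did not reach it and could not appear, so their absence carries no information.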

How the data were processed

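RNA of laser-captured cells was measured on 4 arrays, 1 per group. The deposited table holds 1 linear intensity per probe set and array, and the authors checked and compared arrays in dChip, per the series design text. No source used here gives the background correction, probe summary or scaling. Of 35512 probe sets, 21789 had 1 gene in the platform annotation, 1621 several and 12102 none. Only the first kind was used. Where a gene had more than 1 probe set, the brightest by mean log2 value was kept, for 19938 genes in all. Entrez identifiers of 21698 probe sets matched RefSeq (GRCm38.p6), with 0 symbols changed.

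Values were floored at an intensity of 1 and taken as log2. A call needed a 2-fold difference with the higher value at 43.7, the median of 1-gene probe sets. With 1 array per group, no comparison within a cell type or genotype has residual degrees of freedom, and none was tested. An additive fit of genotype and cell type over the 4 arrays, which would take the interaction as error, was not run. The number of arrays limits the precision. Members and lists were chosen with earlier results of these data known. All members are named. From each fixed list up to 3 called genes per comparison were named, besides values of uncalled members with a known role, which were picked after their values were seen. Alternatives were a pseudocount of 32, quantile normalization, cyclic loess (limma 3.58.1), median centring, no level, the 75th percentile as level, and the mean over probe sets. The calculation was run on simulated data without noise, where differences planted in bright genes were returned. That checks the arithmetic only and does not cover noise or low intensities. Promoter sequences are RefSeq's (GRCm38.p6).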

Additional observations from a re-analysis of the deposited data

Results flagged for a closer look

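The results here are members whose difference had opposite signs in the groups compared, each on 1 array per group. These differences between groups were not tested, and opposite signs are common: 46.2% of all genes had them between the genotype differences of neck and zymogenic cells, against 6 of 9 members, and 42.9% between the cell type differences of both genotypes, against 5 of 9.

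For MIST1-null minus wild-type, Wfdc2 was at 1.64 in neck and -0.46 in zymogenic cells and Olfm4 at 1.63 and -0.30. Cd44 was at 0.51 and -0.090. Gpx2 was at -0.50 and 0.10, Muc4 at -0.17 and 0.57 and Cftr at -0.073 and 0.79.

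For zymogenic minus neck cells, Olfm4 was at 0.97 in wild-type and -0.96 in MIST1-null mice and Cd44 at 0.51 and -0.095. Gpx2 was at -0.36 and 0.24, Muc4 at -0.067 and 0.67 and Cftr at -0.53 and 0.33. Of these 6 genes, Wfdc2 in the neck arrays and Muc4 in all arrays lay above the level on both sides of a difference.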

How the results depend on the processing

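Of 36 member differences, 35 kept their sign under all 7 alternatives, and Cftr in neck cells did not, ranging from -0.07 to 0.01. Only quantile normalization, cyclic loess and median centring could change a sign. The pseudocount keeps the order of 2 values, a change of level leaves the differences as they are, and each member has 1 probe set. Wfdc2 stayed between 1.41 and 1.69 in neck cells and between -3.70 and -2.70 for zymogenic against neck cells of MIST1-null mice. The number of members called higher in MIST1-null neck cells went from 2 to 1 with the pseudocount of 32 and with the 75th percentile level, since Olfm4 was lost (0.85 with the pseudocount). In zymogenic cells it went from 1 to 0 with the same alternatives, since Dmbt1 was lost (0.78 with the pseudocount). Members called lower in wild-type zymogenic than neck cells went from 2 to 1 with the pseudocount, since Sox9 came to -0.99. Members past 2-fold downward in the difference of genotype differences went from 2 to 1 with the 75th percentile level, without Olfm4. Olfm4 passed 2-fold for zymogenic against neck cells of MIST1-null mice under cyclic loess (-1.04) and median centring (-1.02). The scalings moved the median of all genes by under 0.1. No replicate numbers in the labels pair the arrays, and a fit with cell type or genotype as a block was not run. With 1 array per group, leaving an array out removes its comparison. Signal over background is unknown, which limits what can be said of values near or under the level, 18 of the 36 member values.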
